A study of Mus musculus with 6 samples.

Results

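The enzymes that connect proline, ornithine and urea were followed in whole livers of CYP2D6-humanized mice before pregnancy, on day 21 of pregnancy and on day 7 postpartum. The set was a list of 10 genes, Prodh, Prodh2, Aldh18a1, Pycr1, Oat, Cps1, Otc, Ass1, Asl and Arg1, of which 9 were measured among 18193 genes. Pycr1, which reduces pyrroline-5-carboxylate to proline, had no probe set assigned to it alone and is not analysed here. A gene with several probe sets is represented by its brightest one, and its other probe sets are given beside it.

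All animals were C57BL/6 mice that carried the human drug-metabolising P450 gene CYP2D6 as a transgene, so no stage here lacks the transgene. Each stage had 2 livers, called biological replicates in the labels, with 1 Affymetrix mouse array per liver. p-values measure the spread between these livers. The labels do not give the promoter of the transgene. They also give neither the animals' ages nor the time of day or feeding state at collection. A difference between stages cannot be told apart from one in age, time of day or feeding state. Levels are RMA values on the log2 scale, so a difference of 1 is a 2-fold change. Array medians over all probe sets lay between 5.09 and 5.15, and replicate livers correlated across genes at 0.994 to 0.997. Their number limits the precision.

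Proline dehydrogenase (Prodh) oxidises proline in mitochondria to pyrroline-5-carboxylate, the compound at which proline, glutamate and ornithine meet. Ornithine aminotransferase (Oat) converts ornithine to the same compound, and the bifunctional enzyme encoded by Aldh18a1 makes it from glutamate. Ornithine is also the carrier of the urea cycle, in which Cps1 and Otc in mitochondria and Ass1, Asl and Arg1 in the cytosol of hepatocytes, mainly periportal ones, turn ammonia and the nitrogen of aspartate into urea. Oat is known for its place in pericentral hepatocytes, beside glutamine synthetase.

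Promoters are shown for Prodh and Oat, which fell in pregnancy, and for Prodh2, the relative of Prodh whose 2 pregnant livers were its highest, a difference from pre-pregnancy that was not called. Each is a window of 300 bases around the gene's start from RefSeq, on build GRCm38.p6, written 5′ to 3′ on the gene's strand. They lie at chr16:18089141-18089440 on the minus strand (Prodh), chr7:132576349-132576648 on the minus strand (Oat) and chr7:30493408-30493707 on the plus strand (Prodh2). Capitals mark matches, on either strand, to 8 searched motifs: the box spelled TATAAA, the box spelled CCAAT, the GC box GGGCGG, the C/EBP-type site TTGCNNAA, the glucocorticoid receptor half-site AGAACA, the nuclear receptor half-site AGGTCA, the HNF4A-type site CAAAGTCCA and the E-box CACGTG. No match overlaps another in these windows.
Prodh: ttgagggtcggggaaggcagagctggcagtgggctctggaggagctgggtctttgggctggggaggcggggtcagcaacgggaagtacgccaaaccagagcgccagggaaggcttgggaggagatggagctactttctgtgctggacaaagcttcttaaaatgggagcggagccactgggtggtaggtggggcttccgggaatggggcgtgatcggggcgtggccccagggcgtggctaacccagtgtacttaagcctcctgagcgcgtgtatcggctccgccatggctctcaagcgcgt
Oat: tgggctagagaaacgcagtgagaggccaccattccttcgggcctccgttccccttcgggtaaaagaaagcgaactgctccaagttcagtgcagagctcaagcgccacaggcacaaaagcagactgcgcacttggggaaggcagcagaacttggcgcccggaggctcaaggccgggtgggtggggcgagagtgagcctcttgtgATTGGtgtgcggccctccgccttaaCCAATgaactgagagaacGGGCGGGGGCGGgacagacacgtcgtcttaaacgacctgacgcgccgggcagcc
Prodh2: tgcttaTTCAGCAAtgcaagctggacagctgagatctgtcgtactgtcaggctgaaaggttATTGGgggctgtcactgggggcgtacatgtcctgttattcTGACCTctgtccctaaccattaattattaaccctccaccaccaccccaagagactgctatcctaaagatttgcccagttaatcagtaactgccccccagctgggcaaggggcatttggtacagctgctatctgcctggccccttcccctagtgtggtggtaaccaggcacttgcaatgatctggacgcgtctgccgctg
The Prodh window held 0 matches. The Oat window held 2 CCAAT boxes, a motif found in 37.4% of 32851 promoter windows of this length, and 2 GC boxes, a motif found in 35.7% of them. The Prodh2 window held 1 CCAAT box, 1 nuclear receptor half-site (in 16.3% of windows) and 1 C/EBP-type site (in 10.8%). Shares for the other motifs were 13.6% for TATAAA, 19.0% for AGAACA, 0.475% for CAAAGTCCA and 7.15% for CACGTG. Of the 10 genes, 7 had a window in the table, and Cps1, Asl and Arg1 did not. The 3 windows share no more of these motifs than the CCAAT box of Oat and Prodh2, and a match is a description of letters, not a site.

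The first question was how these enzymes stand at the end of gestation relative to the liver before pregnancy. Prodh and Oat, the enzymes that feed proline and ornithine into pyrroline-5-carboxylate, fell 2.80-fold and 2.68-fold, and the urea cycle lyase Asl fell 1.55-fold. The abundant urea cycle transcripts Cps1 and Arg1 were within 0.16 and 0.03 of their pre-pregnancy means on the log2 scale. Of 9 measured enzymes 3 fell, 0 rose and 6 were not called by limma's test at an adjusted p of 0.05, where 8.25% of all genes fell, 5.46% rose and 13.7% were called in either direction. At an unadjusted p of 0.05, 4 were lower and 2 higher. Here and below, counts at an unadjusted p are given without the share of all genes passing it, so no excess can be read from them. The median log2 difference of the 9 enzymes was -0.16, against 0.045 over all genes tested. The groups did not overlap in 8 of 9 enzymes, against 59.6% of all genes, which carries little information with 2 livers a group.

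Prodh stood at 10.96 and 11.21 before pregnancy, at 9.47 and 9.73 on day 21 of pregnancy and at 10.86 and 10.60 on day 7 postpartum. Both pregnant livers lay below all others by more than the spread between replicates. The log2 difference of pregnancy from pre-pregnancy was -1.49 ± 0.148 (SE, n = 2 livers per stage, limma adjusted p = 0.00193), and it ran from -1.615 to -1.355 with each array left out in turn, called each time. Prodh has a single probe set here.

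Prodh2, the related dehydrogenase that acts on hydroxyproline in liver and kidney, was highest in pregnancy, the stage at which Prodh was lowest, and like Prodh had a lower mean postpartum than before pregnancy. It stood at 10.86 and 10.79 before pregnancy, at 11.08 and 11.18 in pregnancy and at 10.54 and 10.65 postpartum. The pregnant livers were the highest and the postpartum livers the lowest, without overlap between any stages. The difference of pregnancy from pre-pregnancy, 0.31 ± 0.104, was not called (adjusted p = 0.0929, 95% confidence interval 0.06 to 0.55).

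Oat stood at 12.42 and 12.62 before pregnancy, at 11.23 and 10.97 in pregnancy and at 11.57 and 11.66 postpartum. The pre-pregnancy livers were highest, the pregnant livers lowest, and the postpartum livers lay between them without overlap. The difference of pregnancy from pre-pregnancy was -1.42 ± 0.129 (adjusted p = 0.00130), from -1.55 to -1.29 with each array left out and called each time. Oat also has a single probe set.

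**Figure D1:**
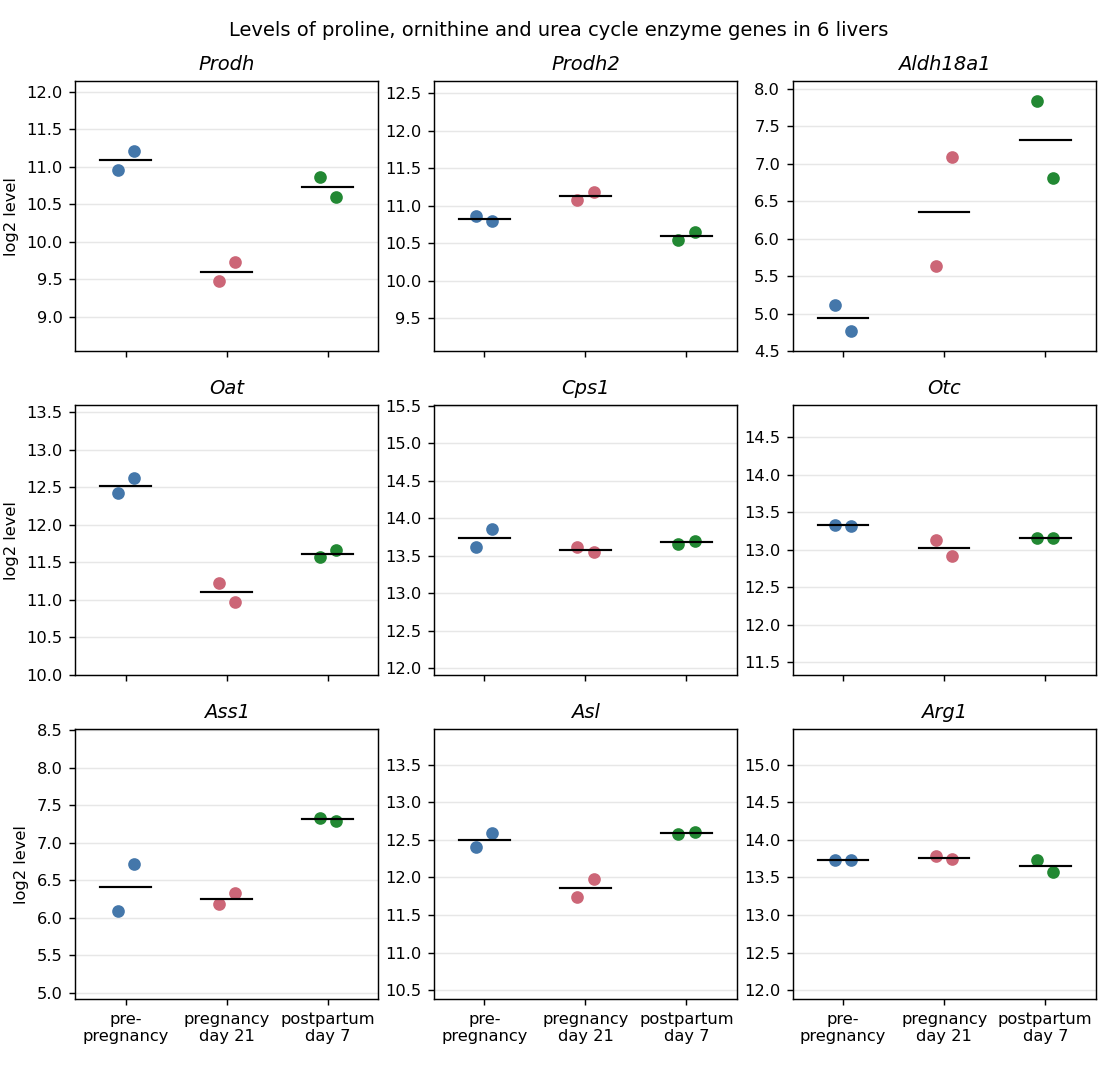
Log2 level of each of 9 enzyme genes (vertical axes, each spanning the same range of log2 units) in the 2 livers of each stage (points) with the stage mean (black bars). The pregnant livers were lowest for Prodh (9.47 and 9.73), Oat (11.23 and 10.97) and Asl (11.74 and 11.98), while Cps1 and Arg1 moved little.

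Among the urea cycle enzymes, Asl, which splits argininosuccinate into arginine and fumarate, stood at 12.40 and 12.59 before pregnancy, at 11.74 and 11.98 in pregnancy and at 12.58 and 12.61 postpartum. The pregnant livers were the lowest and the other stages overlapped. The difference of pregnancy from pre-pregnancy was -0.64 ± 0.123 (adjusted p = 0.0167). It no longer passed when pre-pregnancy replicate 1 (-0.73, adjusted p = 0.0745), pre-pregnancy replicate 2 (-0.54, 0.0922) or pregnancy replicate 1 (-0.515, 0.0563) was left out.

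Otc, the mitochondrial transferase that joins ornithine to carbamoyl phosphate, stood at 13.33 and 13.32 before pregnancy, at 13.13 and 12.92 in pregnancy and at 13.15 in both postpartum livers. Its difference of pregnancy from pre-pregnancy, -0.30 ± 0.109, was not called (adjusted p = 0.109, 95% interval -0.55 to -0.05). It was called with a trended and robust variance (adjusted p = 0.0331). The 3 probe sets of Otc disagreed in size. When every probe set was tested by itself, the dimmest (7 and 6.85 in pregnancy, 8.03 and 7.64 before it) fell by 0.91 on the log2 scale (adjusted p = 0.0104), and the 2 bright ones differed by -0.30 and -0.21 and were not called. With the mean of its probe sets Otc fell by 0.47 (adjusted p = 0.0193). All 3 differences lay below 0, while their size and whether they were called depended on the probe set.

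Cps1, the ammonia-fixing synthetase that commits nitrogen to the cycle, stood at 13.62 and 13.86 before pregnancy, at 13.61 and 13.55 in pregnancy and at 13.65 and 13.70 postpartum. Arg1, the arginase that releases urea, stood at 13.73 in both livers before pregnancy, at 13.78 and 13.74 in pregnancy and at 13.73 and 13.57 postpartum. Neither was called in any comparison. The pregnancy difference was -0.16 for Cps1 (95% interval -0.43 to 0.11) and 0.03 for Arg1 (-0.21 to 0.27), so the intervals leave out falls the size of those of Prodh and Oat. Both lay above the 99th percentile of all genes by mean level, at 99.6 for Cps1 and 99.7 for Arg1, and whether differences are compressed at that end of the scale was not tested.

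Ass1, which joins citrulline and aspartate, was measured by a probe set of middling brightness at 6.09 and 6.72 before pregnancy, at 6.18 and 6.33 in pregnancy and at 7.33 and 7.29 postpartum. The pregnant livers lay between the 2 pre-pregnancy livers, and the difference of -0.15 was not called (adjusted p = 0.629, 95% interval -0.59 to 0.29). Without pre-pregnancy replicate 2 it was 0.165, so its direction is not settled. A far brighter probe set is assigned both to Ass1 and to the near-identical gene Gm5424 and cannot be named for either. It stood at 12.48 and 12.88 before pregnancy, at 12.08 and 12.01 in pregnancy and at 12.69 and 12.71 postpartum, a difference of pregnancy from pre-pregnancy of -0.635, untested. The 2 probe sets thus gave different patterns, and the level of Ass1 in late pregnancy is uncertain.

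Aldh18a1, the enzyme of proline and ornithine synthesis from glutamate, was dim and rested on probe sets that disagreed. Its brightest probe set stood at 5.12 and 4.77 before pregnancy, at 5.63 and 7.09 in pregnancy and at 7.83 and 6.81 postpartum. The pregnant livers lay above the pre-pregnancy livers but far apart (SD 1.03, against 0.247 before pregnancy). The difference of 1.42 ± 0.469 was not called (adjusted p = 0.0856), and leaving out pregnancy replicate 1 gave 2.145 (adjusted p = 0.0202), leaving out replicate 2 gave 0.685 (0.313). Of its 5 probe sets, 4 carry the suffix that marks probes which may bind other transcripts. The remaining one, 1415836_at, stood at 5.01 and 5.27 before pregnancy, at 5.63 and 5.76 in pregnancy and at 5.47 and 5.46 postpartum, and was the only one of the 5 called in pregnancy when every probe set was tested by itself (0.555 ± 0.122, adjusted p = 0.0247). The 5 differences were all positive, from 0.33 to 1.42.

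**Figure D2:**
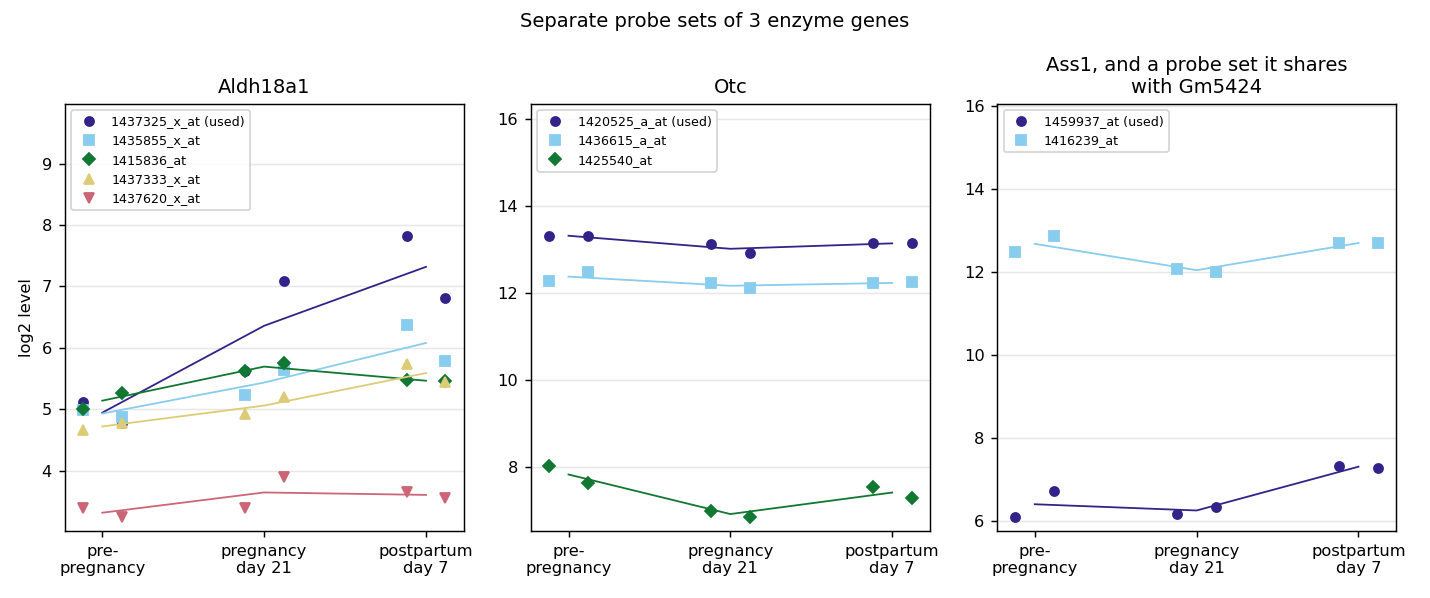
Log2 level (vertical axis) of each probe set of Aldh18a1, Otc and Ass1 in the 2 livers of each stage (points) with lines through stage means, and beside Ass1 the probe set it shares with Gm5424. The used probe set of Aldh18a1 spreads most, at 5.63 and 7.09 in pregnancy, the dimmest Otc probe set dips most in pregnancy, and the shared probe set dips to 12.08 and 12.01 where that of Ass1 alone does not.

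**Figure D3:**
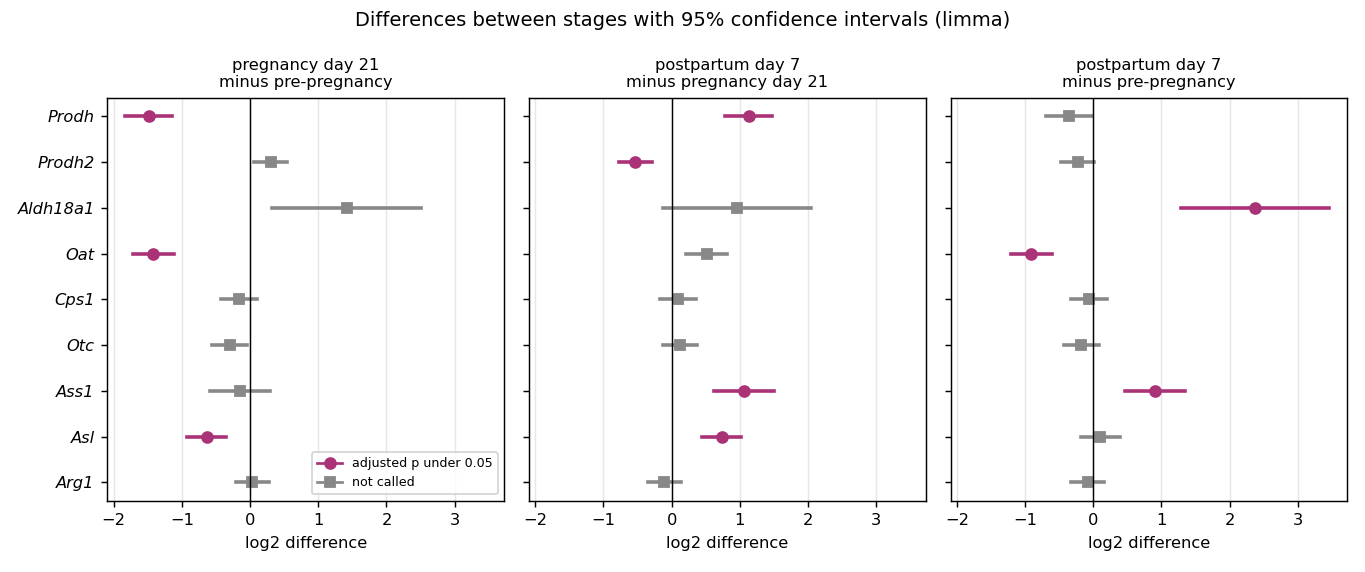
Log2 difference between stages (horizontal axis, first-named stage minus the second) of each enzyme gene with its 95% confidence interval (lines), for the 3 comparisons. Circles mark genes with an adjusted p under 0.05 and squares those not called. In pregnancy Prodh (-1.49), Oat (-1.42) and Asl (-0.64) lie left of 0, and postpartum against pregnancy Prodh (1.13), Ass1 (1.06) and Asl (0.735) lie right of it.

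The second question was where the enzymes stood a week after birth relative to late pregnancy. The pregnant livers enter this comparison and the first, so the 2 are not independent. Of 9 enzymes, 3 rose (Prodh, Asl and Ass1), 1 fell (Prodh2) and 5 were not called, where 2.41% of all genes rose, 0.879% fell and 3.29% were called in either direction. Their median log2 difference was 0.515, against -0.01 over all genes, and the groups did not overlap in 8 of 9 enzymes, against 50.1% of all genes.

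Prodh rose 2.19-fold postpartum (10.86 and 10.60 postpartum, 9.47 and 9.73 in pregnancy, difference 1.13 ± 0.148, adjusted p = 0.0117). It did not pass when postpartum replicate 1 was left out (1.00, adjusted p = 0.0702). Asl rose 1.66-fold (0.74 ± 0.123, adjusted p = 0.0255), a call that held without pregnancy replicate 2 and was lost without pre-pregnancy replicate 1 or 2 (0.735 and adjusted p = 0.0589 in each), pregnancy replicate 1 (0.615, 0.0643), postpartum replicate 1 (0.75, 0.116) or postpartum replicate 2 (0.72, 0.132). Ass1 rose 2.08-fold on its own probe set (1.06 ± 0.190, adjusted p = 0.0310), and did not pass when either pregnancy array (0.98 and 1.13, adjusted p = 0.0855 and 0.0837) or either postpartum array (1.035 and 1.075, 0.141 and 0.137) was left out. The probe set shared with Gm5424 was 0.655 higher postpartum, untested.

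Prodh2 fell 1.45-fold postpartum, at 10.54 and 10.65 postpartum and 11.08 and 11.18 in pregnancy (difference -0.54 ± 0.104, adjusted p = 0.0395). The call did not survive the loss of any single array (-0.59 to -0.48, adjusted p from 0.0627 to 0.19), nor the fit of these stages alone (0.0869). Oat, at 11.57 and 11.66 postpartum and 11.23 and 10.97 in pregnancy, differed by 0.52 ± 0.129 and was not called (adjusted p = 0.0766, 95% interval 0.22 to 0.81). It was called with a trended and robust variance (adjusted p = 0.0290). Aldh18a1 (0.96, adjusted p = 0.297), Otc (0.125, 0.566), Cps1 (0.095, 0.69) and Arg1 (-0.11, 0.602) were not called either. The other probe sets of Aldh18a1 ran from -0.23 (1415836_at) to 0.645 and were not called when tested by themselves.

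Postpartum livers were last compared with pre-pregnancy livers, to ask which enzymes had pre-pregnancy levels a week after birth. Oat was 1.87-fold lower (11.57 and 11.66 postpartum, 12.42 and 12.62 before pregnancy, difference -0.91 ± 0.129, adjusted p = 0.0096). Ass1 was 1.87-fold higher on its own probe set, at 7.33 and 7.29 postpartum and 6.09 and 6.72 before pregnancy (0.91 ± 0.190, adjusted p = 0.0307), whereas the probe set shared with Gm5424 was 0.02 apart, untested. Aldh18a1 was 5.19-fold higher on its brightest probe set, at 7.83 and 6.81 postpartum and 5.12 and 4.77 before pregnancy (2.38 ± 0.469, adjusted p = 0.0256). Of 9 enzymes 2 were called higher and 1 lower, where 3.91% of all genes were higher, 3.75% lower and 7.66% called in either direction, and their median difference was -0.08, against 0.025 over all genes. The groups did not overlap in 6 of 9 enzymes, against 52.6% of all genes.

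The size of the Aldh18a1 difference is not settled, since its pre-pregnancy level was dim and its other probe sets stood at 1.15, 0.87, 0.325 and 0.29. Of these, 1.15 (adjusted p = 0.0174) and 0.87 (0.012) were called when every probe set was tested by itself. Both, like the brightest, carry the suffix of probes that may bind other transcripts. The probe set without that suffix, 1415836_at, stood at 0.325 and was not called (adjusted p = 0.16). Each of these differences lay above 0, while their size and whether they were called depended on the probe set. The calls of Oat and Aldh18a1 were lost without either pre-pregnancy array or either postpartum array (adjusted p from 0.0507 to 0.0757 for Oat, with differences of -1.005 to -0.805, and from 0.0535 to 0.164 for Aldh18a1, with 1.865 to 2.885). Ass1 did not pass when pre-pregnancy replicate 1 (0.59, adjusted p = 0.137), postpartum replicate 1 (0.885, 0.114) or postpartum replicate 2 (0.925, 0.143) was left out. Prodh was -0.36 from its pre-pregnancy mean and not called (adjusted p = 0.201, 95% interval -0.70 to -0.01). Asl was 0.10 apart (-0.19 to 0.39), Prodh2 -0.23 (-0.47 to 0.01), Otc -0.175 (-0.43 to 0.08), Cps1 -0.065 (-0.33 to 0.20) and Arg1 -0.08 (-0.32 to 0.16), with none of these called.

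Other genes of the same pathways were read from a list of 51, of which 45 were measured. In pregnancy 9 fell, 4 rose and 32 were not called, where 8.25% of all genes fell and 5.46% rose, with a median difference of -0.07, against 0.045 over all genes. Postpartum against pregnancy 3 rose, 0 fell and 42 were not called, where 2.41% of all genes rose and 0.879% fell, with a median of 0.10, against -0.01. At an unadjusted p of 0.05, 9 were higher and 4 lower, without the share of all genes at that p, and with a trended and robust variance 1 fell. Postpartum against pre-pregnancy 3 were higher, 2 lower and 40 not called, where 3.91% of all genes were higher and 3.75% lower, with a median of -0.065, against 0.025.

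In the proline branch, Pycr3, a cytosolic pyrroline-5-carboxylate reductase and thus on the synthesis side, stood at 8.88 and 8.79 before pregnancy, at 7.87 in both pregnant livers and at 8.44 and 8.68 postpartum. It fell by 0.965 in pregnancy (SE 0.116, 1.95-fold, adjusted p = 0.00319) and rose by 0.69 postpartum (adjusted p = 0.0253). Aldh4a1, which takes pyrroline-5-carboxylate on to glutamate, was among the genes not called. In the breakdown of hydroxyproline, downstream of Prodh2, 1 of 3 genes was called. Agxt, the peroxisomal aminotransferase that clears glyoxylate, was higher in pregnancy (0.45 ± 0.101, adjusted p = 0.0271) and postpartum (0.565, 0.0195) than before pregnancy. Grhpr differed more in pregnancy, by 0.595 ± 0.167 without overlap between the groups, but was not called (adjusted p = 0.0532). Postpartum against pregnancy Grhpr stood at -0.67 and was not called either (adjusted p = 0.0757). Hoga1 stood at -0.06 and -0.01 in these comparisons.

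Gatm, which takes the amidino group of arginine for creatine synthesis, stood at 8.05 and 8.06 before pregnancy, at 6.72 and 6.80 in pregnancy and at 7.13 and 6.59 postpartum. It fell 2.45-fold in pregnancy (-1.295 ± 0.168, adjusted p = 0.00426) and was 2.29-fold lower postpartum than before pregnancy (adjusted p = 0.00948), so both later stages lay below the first. The other 5 genes of arginase and arginine use, among them Arg2 and the methyltransferase gene Gamt, were not called.

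Among mitochondrial carriers, Slc25a22, a glutamate carrier, rose 1.91-fold in pregnancy (10.15 and 9.92 in pregnancy, 8.90 and 9.31 before it, adjusted p = 0.00985) and was 1.87-fold higher postpartum than before pregnancy (adjusted p = 0.016). The aspartate-glutamate carrier Slc25a12 fell by 0.645 in pregnancy (adjusted p = 0.0115), while its other 2 probe sets stood at -0.37 and -0.12 and were not called. Slc25a13, the liver's main aspartate-glutamate carrier, was 0.50 lower postpartum than before pregnancy (-0.50, adjusted p = 0.0414). Slc25a15, the ornithine carrier of the urea cycle, and Nags, whose product activates Cps1, were not called in any comparison.

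Got1, the cytosolic aspartate aminotransferase, stood at 11.14 and 11.50 before pregnancy, at 10.87 and 10.57 in pregnancy and at 11.98 and 11.88 postpartum. It fell by 0.60 in pregnancy (adjusted p = 0.0407) and rose by 1.21 postpartum (2.31-fold, adjusted p = 0.0105). Among aspartate and fumarate links, 3 of 7 fell in pregnancy: Aspg, an asparaginase (-0.64, adjusted p = 0.0308), Fh1, the fumarase (-0.515, 0.0163), and Adss2, a purine synthesis enzyme that uses aspartate (-0.635, 0.00871). Aspg rose by 1.025 postpartum against pregnancy (adjusted p = 0.0159).

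Of 7 polyamine genes, Azin1, an inhibitor of antizyme, fell by 0.75 in pregnancy (adjusted p = 0.0168) and Smox, spermine oxidase, rose by 0.985 (0.0194), while Odc1, which makes putrescine from ornithine, was not called. A dimmer probe set of Smox stood at 0.14 and was not called. Of 8 amino acid carriers, Slc38a4, a sodium-coupled neutral amino acid carrier, fell by 0.915 (11.77 and 11.08 in pregnancy, 12.30 and 12.38 before it, adjusted p = 0.025). Slc1a4, a neutral amino acid exchanger, rose by 0.97 (7.90 and 7.86 in pregnancy, 6.81 and 7.01 before it, adjusted p = 0.0028) and was 0.795 higher postpartum than before pregnancy (0.00918), with its 2 other probe sets at 0.41 and 0.64 in pregnancy. Postpartum against pre-pregnancy these 2 stood at 0.165 and 0.41 and were not called when tested by themselves (adjusted p = 0.438 and 0.111).

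Many of these calls did not hold with an array left out, which leaves 1 liver in its stage. Some differences moved little: over the arrays left out, Gatm in pregnancy ran from -1.335 to -1.255 and Fh1 from -0.565 to -0.465. Others moved more, such as Slc38a4 in pregnancy, from -1.26 to -0.57. In pregnancy, of the 13 called, Pycr3 and Slc1a4 kept their calls with any array left out. Without pre-pregnancy replicate 1 the other 11 lost theirs, without pre-pregnancy replicate 2 8 did (all but Pycr3, Slc1a4, Adss2, Gatm and Slc25a22), without pregnancy replicate 1 Agxt and Azin1, without pregnancy replicate 2 Agxt, Aspg, Fh1, Got1 and Slc25a12, and without either postpartum array Got1. Without pregnancy replicate 2, Slc38a4 stood at -0.57, Smox at 0.64 and Aspg at -0.425. Postpartum against pregnancy, none of the 3 calls held without postpartum replicate 1 or 2 (0), Got1 alone held without pre-pregnancy replicate 1 or 2, and Pycr3 was also lost without pregnancy replicate 1 or 2 (0.57 to 0.81 over the arrays left out, with 0.81 to 1.24 for Aspg and 1.06 to 1.36 for Got1). Postpartum against pre-pregnancy, 0 of 5 calls held without pre-pregnancy replicate 1, Slc1a4 and Slc25a22 held without pre-pregnancy replicate 2, Gatm and Slc1a4 without postpartum replicate 1, and Gatm without postpartum replicate 2, with differences of -1.465 to -0.925 for Gatm and 0.695 to 0.895 for Slc1a4.

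**Figure D4:**
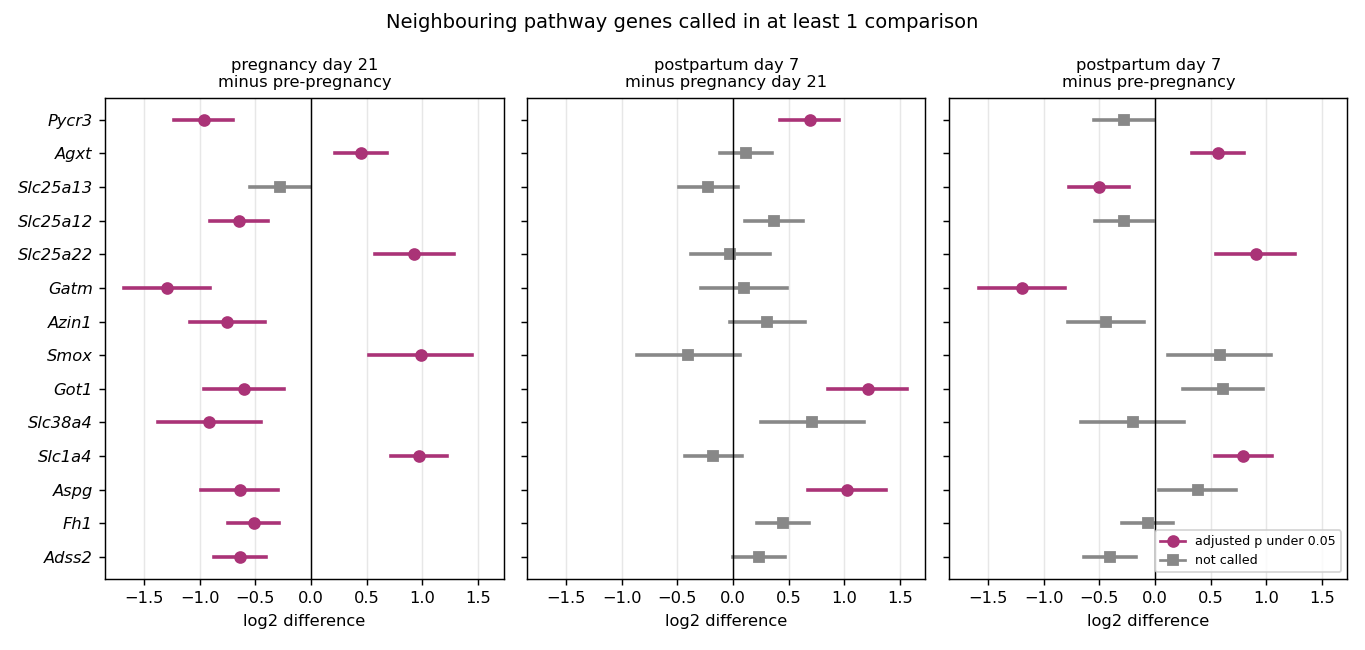
Log2 difference between stages (horizontal axis, first-named stage minus the second) with 95% confidence intervals (lines) for the 14 other pathway genes called in at least 1 of 3 comparisons, circles marking an adjusted p under 0.05 and squares genes not called. Pycr3 (-0.965) and Got1 (-0.60) lie left of 0 in pregnancy and right of it postpartum against pregnancy, while Gatm (-1.295 and -1.195) lies left of 0 in pregnancy and postpartum against pre-pregnancy.

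The genes whose profile over the 6 arrays lay closest to that of Prodh, by root mean square difference after each gene was centred on its own mean, were 9030619P08Rik (0.116), Gimap8 (0.118) and Gca (0.144), among 9096 genes at or above the median level. Gimap8 stood at 8.50 and 8.45 before pregnancy, at 7.09 and 7.16 in pregnancy and at 8.37 and 8.06 postpartum. For Oat they were Dpy19l1 (0.113), Insc (0.116) and AW112010 (0.119), the last at 12.39 and 12.41 before pregnancy, at 11.30 and 10.93 in pregnancy and at 11.73 and 11.75 postpartum. Prodh and Oat themselves were 0.33 apart by this measure.

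Markers of hepatocytes and of other cells were read beside these results, and in whole liver fewer cells of a type and less RNA per cell cannot be told apart. The 7 measured hepatocyte markers averaged 13.99 and 14.08 in pregnancy and 13.96 and 14.00 before it, with 1 higher (Apob, 0.58, adjusted p = 0.0108). The 6 periportal markers outside the list averaged 11.81 and 11.64 in pregnancy and 11.53 and 11.62 before it, with 1 higher (Hsd17b6) and 1 lower (Cdh1). The 7 pericentral markers averaged 10.46 and 10.63 in pregnancy and 10.25 and 10.45 before it, with 1 higher (Lhpp). Endothelial markers averaged 7.68 and 7.54 in pregnancy and 8.21 and 7.99 before it, with 3 of 8 lower (Kdr, Tek and Emcn), beside the falls of Prodh, Oat and Asl, and their part in those falls was not tested. Of 5 measured enterocyte markers, of an epithelium that also carries Cps1, Otc and Oat, 1 was higher in pregnancy (Apoa4, a gene that liver also expresses), and they averaged 7.56 and 7.57 in pregnancy and 7.33 and 7.30 before it. The 8 Kupffer cell markers averaged 9.21 and 8.88 in pregnancy and 9.24 and 9.33 before it, with 1 lower (Timd4, -0.905, adjusted p = 0.00262). The 8 stellate and matrix markers averaged 8.39 and 8.27 in pregnancy and 8.56 and 8.52 before it, with 1 lower (Lrat, -1.47, 0.0230). The 5 neutrophil markers averaged 5.60 and 5.62 in pregnancy and 5.14 and 5.24 before it, with 1 higher (S100a9, 0.74, 0.00524). S100a8 (0.33), Ngp (0.375), Camp (0.32) and Ltf (0.35) also lay above 0 and were not called. Of the 5, 2 lay under the lower quartile of all genes by mean level. The 4 measured pancreatic acinar markers averaged 5.94 and 5.84 in pregnancy and 5.93 and 5.99 before it, with 1 lower (Cela1, -1.18, 0.00167). The others, Cpa1 (0.355), Prss2 (0.135) and Cel (0.405), lay above 0 and were not called.

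Beside the postpartum differences of Prodh, Asl, Ass1 and Prodh2 from pregnancy, 4 of these markers were called: Rhbg of pericentral hepatocytes was higher (0.565), and Hsd17b6 of periportal hepatocytes (-1.145), S100a9 (-0.525) and Fabp2 of enterocytes (-0.97) were lower. Pericentral markers averaged 10.49 and 10.46 postpartum, against 10.46 and 10.63 in pregnancy. For periportal markers these were 11.63 and 11.50, against 11.81 and 11.64, and for enterocyte markers 7.25 and 7.36, against 7.56 and 7.57. The uncalled pericentral, periportal and enterocyte markers lay on both sides of 0. Neutrophil markers averaged 5.288 and 5.292 postpartum, against 5.604 and 5.622 in pregnancy. Their uncalled members, S100a8 (-0.325), Ngp (-0.265), Camp (-0.18) and Ltf (-0.32), all lay below 0. Beside the postpartum differences of Oat, Ass1 and Aldh18a1 from pre-pregnancy, Marco of macrophages was higher (1.03) and Timd4 lower (-0.61), Rhbg (0.505), Lhpp (0.755), Apob (0.535) and Apoa4 (0.545) were higher, and Fabp2 (-0.78) and Cela1 of pancreatic acinar cells (-1.045) were lower. The other acinar markers, Cpa1 (0.11), Prss2 (0.165) and Cel (0.06), lay above 0 and were not called. Kupffer cell markers averaged 9.25 and 9.37 postpartum, against 9.24 and 9.33 before pregnancy. Endothelial markers averaged 7.70 and 7.55 postpartum and 8.21 and 7.99 before pregnancy, with 0 of 8 called by limma. At an unadjusted p of 0.05, 6 were lower, without the share of all genes at that p. The part of these markers in the enzyme differences was not tested.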

How the data were processed

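Liver RNA (6 samples) was Trizol-extracted and biotin-labelled by the 3' IVT Express method, which reads transcripts near their 3' end, per the labels' protocols. The authors deposited 1 table of log2 values for 45101 probe sets on 6 arrays. The submitters' processing notes name RMA and Affymetrix Power Tools without versions. The log2 base was inferred from the range of the values. Quantile normalization, a usual step of RMA, would remove changes shared by most genes. Names came from the platform annotation, which gave 34945 probe sets 1 symbol. Those with several symbols (932) or none here (9160), and 64 controls, were not tested. Adss2 and Pycr3 were matched under older symbols.

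The test was limma 3.58.1 in R 4.3.3 (a mean per stage, then eBayes) over all 6 arrays, with 3 residual and 4.80 prior degrees of freedom, two-sided, with Benjamini-Hochberg adjustment over 18193 genes and a threshold of 0.05. SE is the moderated standard error. The fit was tested on simulated data. All 9 measured enzymes are named, as are pathway genes called in at least 1 comparison and, for Prodh and Oat, the 3 closest profiles. Genes named as not called beside them were chosen after their values were seen. The enzymes, lists, tests and alternatives were chosen with earlier results of these data known. Alternatives were the replicate block, leaving out each array, the mean of probe sets, single probe sets, repeated quantile normalization, median centring, leaving out dim genes, a trended and robust variance, only the 2 groups compared, a threshold of 0.1 and a 2-fold change.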

Additional observations from a re-analysis of the deposited data

How the results depend on the processing

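With 2 livers a stage, the number of arrays limits precision more than the choice of scaling. The falls of Prodh and Oat in pregnancy kept their calls under all 16 alternatives, with adjusted p of at most 0.0232 and 0.0204. Repeated quantile normalization and median centring reversed no direction of the 9 enzymes. With arrays left out, Ass1 in pregnancy ran from -0.465 to 0.165 and Cps1 postpartum against pre-pregnancy from -0.185 to 0.055, each reversed without pre-pregnancy replicate 2 and uncalled. Under alternatives 864 values were read, of the 9 enzymes and of pathway genes and regulators in the comparisons that called them. Of these, 712 kept side and direction, 143 lost the call, 7 gained it and 2 reversed. Pathway genes and regulators entered only where called, so they could lose a call but not gain one.

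Replicate numbers do not pair the livers by any label, and deviations correlated at 0.03, -0.03 and 0.11 between stages. With the replicate block Prodh2 lost its call postpartum against pregnancy (0 lower, adjusted p = 0.051) and Got1 its call in pregnancy (0.0526), with 14.4%, 3.16% and 8.61% of all genes called.

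In pregnancy, 2 enzymes were higher at a threshold of 0.1, and of the pathway genes 0 were higher and 1 lower by 2-fold. Postpartum against pregnancy, 0 enzymes were lower in the fit of 2 groups or by 2-fold, and of the pathway genes 1 was higher in that fit and 1 lower with a trended variance or at 0.1. Postpartum against pre-pregnancy, 1 enzyme was higher with a trended variance, and 1 higher and 0 lower by 2-fold. Of the pathway genes, 4 were lower with the mean of probe sets, 6 higher and 4 lower with a trended variance, 5 higher in the fit of 2 groups, 5 higher and 4 lower at 0.1, and 0 higher and 1 lower by 2-fold. Over the arrays left out, enzymes higher and lower numbered 0 to 1 and 2 to 3 in pregnancy, 0 to 2 and 0 to 0 postpartum against pregnancy, and 0 to 2 and 0 to 1 postpartum against pre-pregnancy. For pathway genes these were 1 to 5 and 1 to 8, 0 to 3 and 0 to 3, and 0 to 5 and 0 to 2. The share of all genes called was 1.78% to 10.9%, 0.627% to 2.90% and 0.401% to 8.70% over the arrays left out, 21.0%, 5.47% and 13.5% without dim genes, 22.3%, 7.35% and 13.7% at 0.1, and 2.37%, 0.989% and 1.45% by 2-fold, and 1.12% postpartum against pregnancy in the fit of 2 groups. The cause of these changes was not tested, beyond fewer samples or genes where these were left out.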

Other observations

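Of 12 measured regulators that act on amino acid and urea cycle genes or on mitochondria, 3 were lower in pregnancy than before it and 0 higher, where 8.25% of all genes were lower and 5.46% higher. Cebpb, a C/EBP factor of the acute phase and of gluconeogenesis, stood at 11.54 and 11.34 in pregnancy, against 12.15 and 11.94 before it (-0.61 ± 0.121, adjusted p = 0.0183), and its other probe set, at -0.40, was not called when every probe set was tested by itself (adjusted p = 0.0917). Nr3c1, the glucocorticoid receptor, stood at 10.17 and 10.01 in pregnancy, against 10.96 and 10.66 before it (-0.72 ± 0.147, adjusted p = 0.0198), and Tfam, which maintains mitochondrial DNA, at 9.67 and 9.44, against 10.12 and 9.94 (-0.475, 0.0396). One of the 6 probe sets of Nr3c1 stood at 0.205, and the other 5 lay between -0.76 and -0.40. Tested by themselves, those at 0.205, -0.555 and -0.40 were not called (adjusted p = 0.405, 0.131 and 0.082). The other probe set of Tfam stood at -0.48 and was not called either (adjusted p = 0.101). The calls of Cebpb and Nr3c1 were lost without pre-pregnancy replicate 1 (-0.50 and -0.57) or pregnancy replicate 2 (-0.505 and -0.64), and that of Tfam was kept without pregnancy replicate 1 alone (-0.59 to -0.36 over the arrays left out).

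Postpartum against pre-pregnancy, Cebpb (-0.96, adjusted p = 0.00698) and Nr3c1 (-0.80, 0.0208) were lower and Cebpa, the C/EBP factor of mature hepatocytes, was higher at 11.77 and 11.94 postpartum, against 11.26 and 11.37 before pregnancy (0.54, 0.027). Tfam was not called (-0.42, adjusted p = 0.0793), while its dimmer probe set, tested by itself, was lower (-0.82, adjusted p = 0.026). The call of Cebpb was lost without pre-pregnancy replicate 1 (-0.855), that of Nr3c1 without pre-pregnancy replicate 1 or 2 or postpartum replicate 2 (-0.65, -0.95 and -0.66), and that of Cebpa without any of these or postpartum replicate 1 (0.455 to 0.625). Postpartum against pregnancy limma called 0 of the 12, with 2 higher and 2 lower at an unadjusted p of 0.05, without the share of all genes at that p. The dimmer probe set of Cebpb, tested by itself, was lower (-0.685, adjusted p = 0.0432). In pregnancy 2 regulators were higher at an unadjusted p of 0.05, again without that share. Hnf4a and the glucagon receptor gene Gcgr were not called in any comparison. What these regulators contribute to the enzyme levels was not tested.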
